A study of Mus musculus with 8 samples.

Results

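Keratins of simple epithelia and the proteins that join epithelial cells were examined in T cells taken from grafts. The genes were Krt7, Krt8, Krt18, Krt19, Epcam, Cdh1, Cdh16, Cldn4 and Cldn7. They were found by symbol among the probe sets that the platform annotation gives exactly 1 gene symbol. All 9 genes had 1 such probe set each, so 9 of 21218 probe sets, or 9 of 18820 genes, are described. The 4 tolerant samples were CD3-positive T cells from grafts in wild-type CD1 mice, an outbred strain, that had received injections listed as anti-CD4, anti CD8 and CD40L. The 4 rejecting samples were the same cells from grafts in untreated wild-type CD1 mice. Every host, treated or not, carried tissue derived from human embryonic stem cells, and cells were isolated at day 30. The labels number the samples 1 to 4 within a group and leave unsaid whether each came from its own mouse. The p-values here therefore reflect sample-to-sample spread that may be purely technical.

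Keratins form the intermediate filaments of epithelial cells, and each filament is built from pairs of a type I and a type II keratin. In single-layered epithelia such as kidney tubules, gut and ducts, the pair of Krt8 and Krt18 is the usual core, with Krt7 and Krt19 added in ducts and collecting tubules. Cdh1 encodes E-cadherin, which holds neighbouring epithelial cells together at adherens junctions, and Cdh16 encodes kidney-specific cadherin. Epcam encodes an epithelial adhesion molecule, and Cldn4 and Cldn7 encode claudins, which seal tight junctions and set which ions pass. These genes serve as markers of epithelium and are not part of the usual programme of T cells.

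Values are log2 RMA values, and each difference is tolerant minus rejecting on that scale. As a guide to detection, every array was given a background line. This was the 99th percentile of 1182 probe sets whose genes encode smell and pheromone receptors, which T cells are not known to use. It lay between 0.99 and 1.35. The share of probe sets above it was 17.1% and 17.1% on tolerant arrays 3 and 4, against 15.1% and 10.7% on rejecting arrays 3 and 4. On arrays 1 and 2 it was 2.77% and 2.54% in tolerant samples, against 5.03% and 5.73% in rejecting samples. The arrays numbered 3 and 4 and those numbered 1 and 2 are therefore given apart throughout. Among the genes that define the sorted cells, Cd3e, the CD3 epsilon chain, lay above the line on 5 of 8 arrays and Cd3g on 2. Cd4 and Cd8a lay above it on 1 array each, and Cd3d and Cd247 on 0. In whole samples of this kind, fewer cells of a type and less RNA per cell cannot be told apart.

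The promoter windows of 6 of these genes share a short sequence that is shown because the E-cadherin repressors of the Snail and Zeb families, measured below, bind it. Windows of 300 bases, from 250 before to 50 after the start of transcription, came from RefSeq on GRCm38.p6. They were found for Krt7, Krt8, Krt18, Epcam, Cldn4 and Cldn7, and not for Krt19, Cdh1 and Cdh16. The motif searched was CACCTG, read on both strands, so that CAGGTG also counts. It occurred for 6 of the 6 genes with a window, and for 22.6% of all 27025 genes with a window (20.2% of 32851 windows). Cldn7 had a window for each of 2 start sites, of which 1 held the motif, so that 6 of 7 windows of these genes did. The stretches around it follow, 5′ to 3′ on the gene's strand, with the motif in capitals.
Krt7 (chr15:101412338-101412385, plus strand): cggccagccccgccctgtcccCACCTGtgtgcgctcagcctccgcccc
Krt8 (chr15:102004427-102004474, minus strand): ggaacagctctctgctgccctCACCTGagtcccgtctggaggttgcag
Krt18 (chr15:102027981-102028028, plus strand): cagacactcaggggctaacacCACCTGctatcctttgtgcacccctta
Epcam (chr17:87635939-87635986, plus strand): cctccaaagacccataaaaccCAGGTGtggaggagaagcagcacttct
Cldn4 (chr5:134946897-134946969, minus strand): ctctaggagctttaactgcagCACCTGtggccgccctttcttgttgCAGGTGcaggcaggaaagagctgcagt
Cldn7 (chr11:69965303-69965390, plus strand): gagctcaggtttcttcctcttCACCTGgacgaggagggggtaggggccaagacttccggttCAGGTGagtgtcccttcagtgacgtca

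The first base of the motif lay 44 bases before the start in Krt7, 111 before it in Krt8 and 214 before it in Krt18. In Epcam, the match shown lay 19 bases before the start, and another, not shown, lay 187 before it. Cldn4 had a match 14 bases before the start and another that began at base 12, counting the start as base 1. Cldn7 had matches 97 and 57 bases before its start. A match describes the sequence and does not show that a factor binds there. Krt8 and Krt18, the type II and type I partners, are also direct neighbours on the chromosome among protein-coding genes.

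On the arrays numbered 3 and 4, 8 of the 9 genes read higher in tolerant samples, and none of the 9 passed the test. The widest differences were those of Cdh16, Krt7 and Cdh1, at 0.78, 0.70 and 0.51. The median difference of the 9 genes was 0.24, beside -0.01 over all 21218 probe sets, of which 48.2% were higher. For 7 of the 9 genes, both tolerant values lay above both rejecting values, which was the case for 19.3% of all probe sets. Among the 3472 probe sets above the line on at least 2 of these 4 arrays, 62.3% were higher in tolerant samples, with a median of 0.09, and 30.4% had both tolerant values above both rejecting values. The 5 genes in that class were Krt7, Krt8, Krt18, Cdh16 and Cldn7, and those above the line only in tolerant samples entered it through their high values there. In limma, 0 of the 9 genes had an adjusted p under 0.05, where 11 of all probe sets did (0.0518%; 0 without tolerant replicate 3 or 4 and 48 without rejecting replicate 4), and 4 of the 9 had an unadjusted p under 0.05, where 7.21% of all did. The genes were chosen with these results in part known, so their counts are given as a description.

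**Figure D1:**
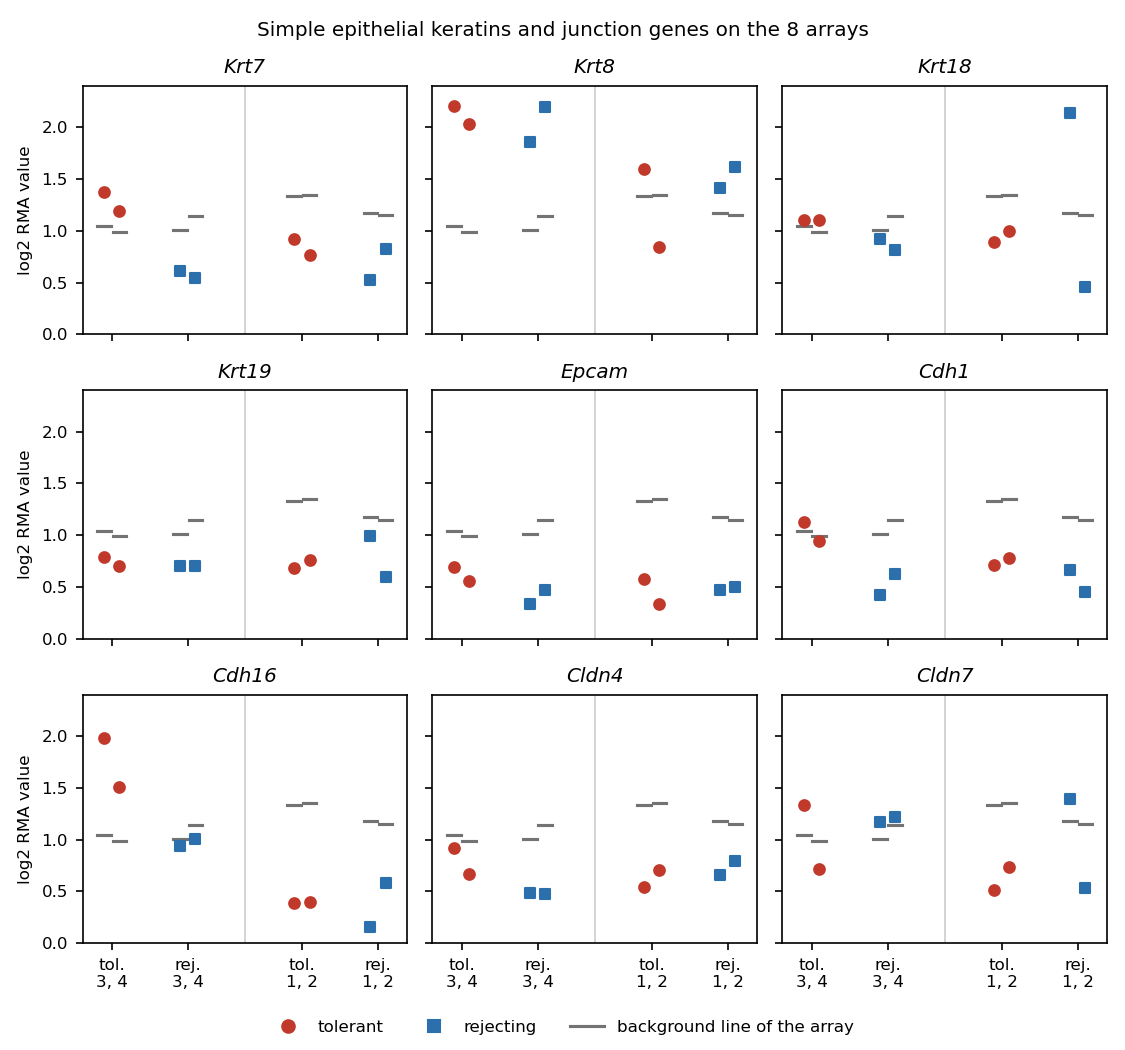
Each panel plots 1 gene, with its log2 RMA value on the vertical axis, as a circle for each tolerant array and a square for each rejecting array. Arrays 3 and 4 are left of the grey divider and arrays 1 and 2 right of it, and short grey lines mark each array's background line. Krt8 lies above the line on 7 of 8 arrays, and Krt19, Epcam and Cldn4 lie above it on 0.

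Krt7, a type II keratin of ducts and collecting tubules, read 1.37 and 1.19 in tolerant samples on arrays 3 and 4, against 0.61 and 0.55 in rejecting samples. The values on arrays 1 and 2 were 0.93 and 0.77 in tolerant samples, against 0.52 and 0.82 in rejecting samples. The groups did not overlap on arrays 3 and 4 and overlapped on arrays 1 and 2. Of the 8 arrays, it lay above the background line only on tolerant arrays 3 and 4. The difference on arrays 3 and 4 was 0.70 ± 0.12 (SE), and did not pass (limma adjusted p = 0.224). Both rejecting values were under the line, so no ratio is given. Over 8 arrays the means were 1.06 ± 0.27 in tolerant and 0.63 ± 0.14 in rejecting samples (SD, n = 4 each), a difference of 0.44 (limma adjusted p = 1.00).

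Krt8, the core type II keratin of simple epithelia, read 2.21 and 2.03 in tolerant samples on arrays 3 and 4, against 1.85 and 2.20 in rejecting samples. Its values on arrays 1 and 2 were 1.60 and 0.84 in tolerant samples, against 1.41 and 1.62 in rejecting samples. It lay above the line on every array but tolerant array 2, and the groups overlapped on arrays 3 and 4 and on arrays 1 and 2. The difference on arrays 3 and 4 was 0.09 (95% interval -0.30 to 0.48), and without rejecting replicate 3 it was -0.08. Krt8 was thus the member detected on the most arrays, with a difference smaller than the spread between samples.

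Krt18, the type I partner of Krt8, read 1.10 and 1.11 in tolerant samples on arrays 3 and 4, against 0.93 and 0.81 in rejecting samples. For arrays 1 and 2 the values were 0.90 and 1.00 in tolerant samples, against 2.14 and 0.46 in rejecting samples. The highest value of the 8 was on rejecting array 1, and the lowest on rejecting array 2. On arrays 3 and 4 the difference was 0.24 ± 0.11 (SE; limma adjusted p = 0.702). Over 8 arrays it was -0.06, and 0.29 without rejecting replicate 1. Krt19, the smallest of the type I keratins and one without a fixed partner, lay between 0.60 and 1.00 on all 8 arrays and above the line on 0. Its difference on arrays 3 and 4 was 0.05 (95% interval -0.21 to 0.31).

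Cdh1, E-cadherin, read 1.13 and 0.94 in tolerant samples on arrays 3 and 4, against 0.42 and 0.62 in rejecting samples. It read 0.71 and 0.78 in tolerant samples on arrays 1 and 2, against 0.66 and 0.45 in rejecting samples. All 4 tolerant values lay above all 4 rejecting values, which held for 1 of the 9 genes and for 1.09% of all probe sets over the 8 arrays. Only tolerant array 3 was above its background line. The difference was 0.51 ± 0.13 (SE) on arrays 3 and 4, and did not pass (limma adjusted p = 0.457). Over 8 arrays the means were 0.89 ± 0.19 in tolerant and 0.54 ± 0.12 in rejecting samples (SD, n = 4 each), a difference of 0.35 (limma adjusted p = 1.00).

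Cdh16, the kidney-specific cadherin of tubule epithelium, read 1.98 and 1.51 in tolerant samples on arrays 3 and 4, against 0.94 and 1.00 in rejecting samples. Its levels on arrays 1 and 2 were 0.38 and 0.40 in tolerant samples, against 0.16 and 0.58 in rejecting samples. It had the widest range of the 9 genes, and it lay above the line only on tolerant arrays 3 and 4, so again no ratio is given. Its difference on arrays 3 and 4 was 0.78 ± 0.18 (SE), and did not pass (limma adjusted p = 0.385). It was 0.54 without tolerant replicate 3 and 1.01 without tolerant replicate 4. Over 8 arrays the means were 1.07 ± 0.81 in tolerant and 0.67 ± 0.39 in rejecting samples (SD, n = 4 each), a difference of 0.40. Without tolerant replicate 3 that was 0.09.

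Epcam, the epithelial cell adhesion molecule, read 0.70 and 0.56 in tolerant samples on arrays 3 and 4, against 0.33 and 0.47 in rejecting samples. Cldn4, a claudin that limits sodium passage, read 0.92 and 0.67 in tolerant samples on those arrays, against 0.48 and 0.48 in rejecting samples. Neither gene lay above the line on any of the 8 arrays, although their groups did not overlap on arrays 3 and 4. Their differences there were 0.22 and 0.32 (limma adjusted p = 0.724 and 0.688). Cldn4 there was 0.19 without tolerant replicate 3. On arrays 1 and 2 the differences were -0.03 and -0.10, and with an array left out Epcam lay between -0.14 and 0.09 and Cldn4 between -0.19 and -0.02.

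Cldn7, a claudin of distal tubule and gut that also binds Epcam, was the only one of the 9 that read lower in tolerant samples on arrays 3 and 4. It read 1.33 and 0.72 in tolerant samples on those arrays, against 1.17 and 1.22 in rejecting samples. Arrays 1 and 2 gave 0.51 and 0.73 in tolerant samples, against 1.39 and 0.54 in rejecting samples. The tolerant arrays disagreed with each other on arrays 3 and 4, where the difference was -0.17 (95% interval -0.70 to 0.36). Without tolerant replicate 4 it was 0.14, and without tolerant replicate 3 it was -0.48.

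**Figure D2:**
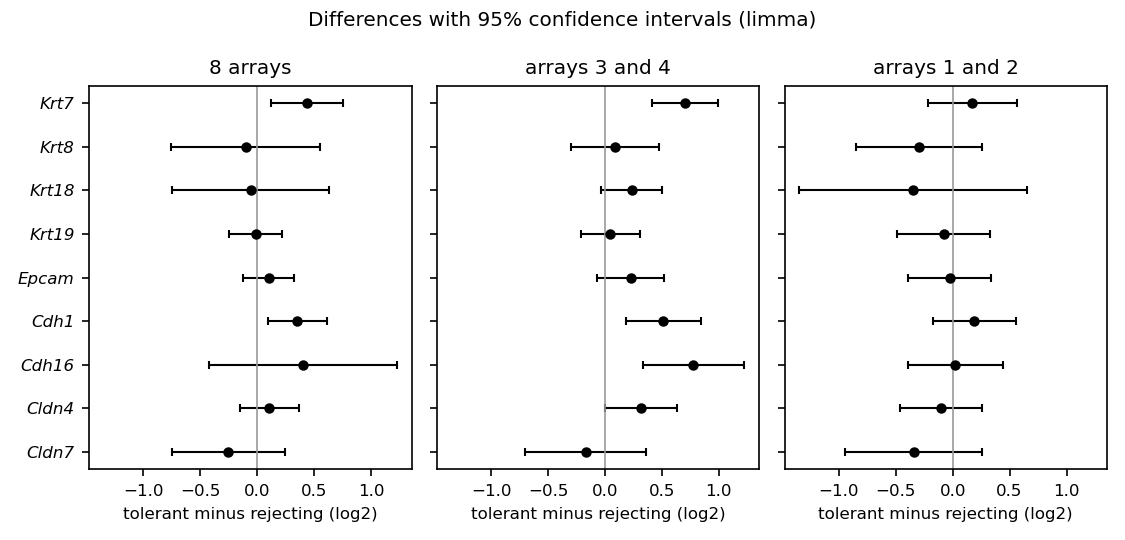
Points give the difference, tolerant minus rejecting, on the log2 scale and bars its 95% confidence interval in limma, in 1 panel each for the 8 arrays, arrays 3 and 4, and arrays 1 and 2. On arrays 3 and 4 the intervals of Krt7, Cdh1 and Cdh16 lie above 0 before adjustment, that of Cldn4 begins at 0, and 0 of the 9 genes passed after adjustment.

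Over all 8 arrays, 5 of the 9 genes read higher and 4 lower in tolerant samples, where 50.1% of all probe sets were higher. The median difference of the 9 genes was 0.10. The median was 0.036 without tolerant replicate 3 and 0.17 without tolerant replicate 2, and leaving out rejecting replicate 3 or 4 gave 0.062 or 0.064. The test called 0 of 9 genes and 0 of 21218 probe sets (0%), with 2 of the 9 genes, Krt7 and Cdh1, and 613 probe sets at an unadjusted p under 0.05. Of the 9 genes on arrays 1 and 2, 3 read higher and 6 lower. Their median was -0.08 (0.02 without rejecting replicate 1 and 0.02 without tolerant replicate 2). Over all probe sets there, 49.4% were higher, with a median of -0.0028. Among the 793 probe sets above the line on at least 2 of these 4 arrays, 38.7% were higher, with a median of -0.09. In limma, 0 of 9 genes and 0 of 21218 probe sets (0%) passed on arrays 1 and 2. At an unadjusted p under 0.05 there were 0 of the 9 genes and 1093 probe sets. Both tolerant values lay above both rejecting values for 1 of the 9 genes there, Cdh1, and for 17.2% of all probe sets. Only 1 of the 9, Krt8, lay above the line on at least 2 of those 4 arrays.

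The difference between the sets of arrays was tested itself, as an interaction in limma. All 9 genes had a larger difference on arrays 3 and 4 than on arrays 1 and 2, by 0.12 to 0.75 with a median of 0.39. Over all probe sets 50.2% had a larger one, with a median of 0.00089. Probe sets above the line on at least 2 arrays were picked for each set of arrays apart, 3472 for arrays 3 and 4 and 793 for arrays 1 and 2. Of the 3472, 62.3% were higher in tolerant samples, and of the 793, 38.7% were. More probe sets lay above the line in tolerant samples on arrays 3 and 4, and in rejecting samples on arrays 1 and 2. The filter alone can therefore shift these 2 shares in opposite directions, and they are no measure of the interaction. The share of such probe sets with a larger difference was not computed. In limma 0 of 9 passed, where 12 of all probe sets did (0.0566%). An unadjusted p under 0.05 was found for 2 of the 9 and for 7.13% of all probe sets. Cdh16 had an interaction of 0.75 ± 0.27 (SE; limma adjusted p = 0.648), and Krt7 one of 0.53 ± 0.21 (SE; limma adjusted p = 0.683). With the replicate block, 7 probe sets passed in place of 12, and 0 of the 9 genes. Without rejecting replicate 1, the interaction was -0.26 for Krt18, -0.07 for Krt19 and -0.25 for Cldn7, and without tolerant replicate 3 it was -0.13 for Cldn7. The median without rejecting replicate 3 was 0.22. The count of probe sets passing the interaction was 0 without tolerant replicate 3 and 76 without rejecting replicate 4.

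Other epithelial genes were measured in 11 lists of 113 genes, of which 109 had a probe set. The lists held other keratins, junction proteins, epithelial surface proteins and proteases, regulators, and the receptors by which lymphocytes bind E-cadherin. On arrays 3 and 4, 60 of them were higher and 49 lower in tolerant samples, and 0 passed the test. On arrays 1 and 2, 48 were higher and 61 lower, and 0 passed. Among the cadherin-catenin and nectin genes 3 of 10 were higher on arrays 1 and 2, with a median of -0.13. On arrays 3 and 4, 8 of 10 were, with a median of 0.25. Ctnnb1, which encodes beta-catenin, the cytoplasmic partner of E-cadherin and a mediator of Wnt signalling in most cells, read 1.59 and 1.58 in tolerant samples on those arrays, against 0.56 and 0.83 in rejecting samples. The difference of 0.88 did not pass (limma adjusted p = 0.189). Afdn, which links nectins to actin, had a difference of 0.49, and Nectin1 of 0.12.

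Epithelial surface proteins and proteases were higher on arrays 1 and 2 for 5 of 7 measured genes, with a median of 0.09. On arrays 3 and 4, 7 of 7 were higher, with a median of 0.24. Of the 7, 2 lay above the line on at least 2 of the arrays 3 and 4. Spint1, an inhibitor of membrane-bound serine proteases, and St14 and Prss8, such proteases themselves, had differences of 0.21, 0.22 and 0.21. Desmosome genes were higher for 7 of 9, with a median of 0.06, and Dsp, Perp and Pkp3 had differences of 0.22, 0.06 and 0.05. Tight junction membrane and scaffold genes were higher for 10 of 16, with a median of 0.05. There Pard6b, Crb3 and Cgn had differences of 0.20, 0.02 and -0.17.

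Keratins and claudins outside the 9 genes mostly read lower or level on tolerant arrays 3 and 4. Of the stratified epithelial keratins, which belong to skin and other layered epithelia, 3 of 16 were higher and 13 lower, with a median of -0.10, and 15 of the 16 lay above the line on 0 arrays. Krt14, Krt77 and Krt13 had differences of -0.03, -0.17 and -0.10. The other simple keratins, Krt20 and Krt23, had -0.02 and -0.17 and were above the line on 0 arrays. The other claudins were higher for 8 of 19, with a median of -0.00096, and Cldn19, Cldn15 and Cldn14 had 0.28, -0.06 and -0.09. Other cadherins were higher for 3 of 9, with Cdh13, Cdh6 and Cdh4 at 0.06, -0.14 and -0.23. No test was made of the difference between these lists and the 9 genes.

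Among regulators, 5 of 6 E-cadherin repressors and 8 of 12 epithelial transcription and splicing regulators were higher on tolerant arrays 3 and 4, and 0 of them passed. Twist1, a repressor expressed in mesenchyme and in activated T cells, read 1.53 and 1.75 in tolerant samples, against 2.12 and 1.88 in rejecting samples (difference -0.36, limma adjusted p = 0.688). Tcf3 and Snai1 had differences of 0.02 and 0.07. The other repressors, Snai2, Zeb1 and Zeb2, are outside the rule for named genes and had 0.10, 0.20 and 0.39. Snai2 and Zeb1 lay above the line on 0 arrays and Zeb2 on 1. Tfcp2l1, a transcription factor of kidney collecting ducts, read 2.51 and 1.46 in tolerant samples, against 1.00 and 1.23 in rejecting samples, a difference of 0.87 ± 0.34 (SE; limma adjusted p = 0.685). Ovol2 and Grhl1, which maintain epithelial identity, had differences of 0.25 and -0.11. The lymphocyte receptors that bind E-cadherin were mostly under the line: Itgae, the alpha chain of CD103, and Klrg1 were above it on 0 arrays and Itgb7 on 1, with differences of 0.13, -0.15 and -0.28.

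**Figure D3:**
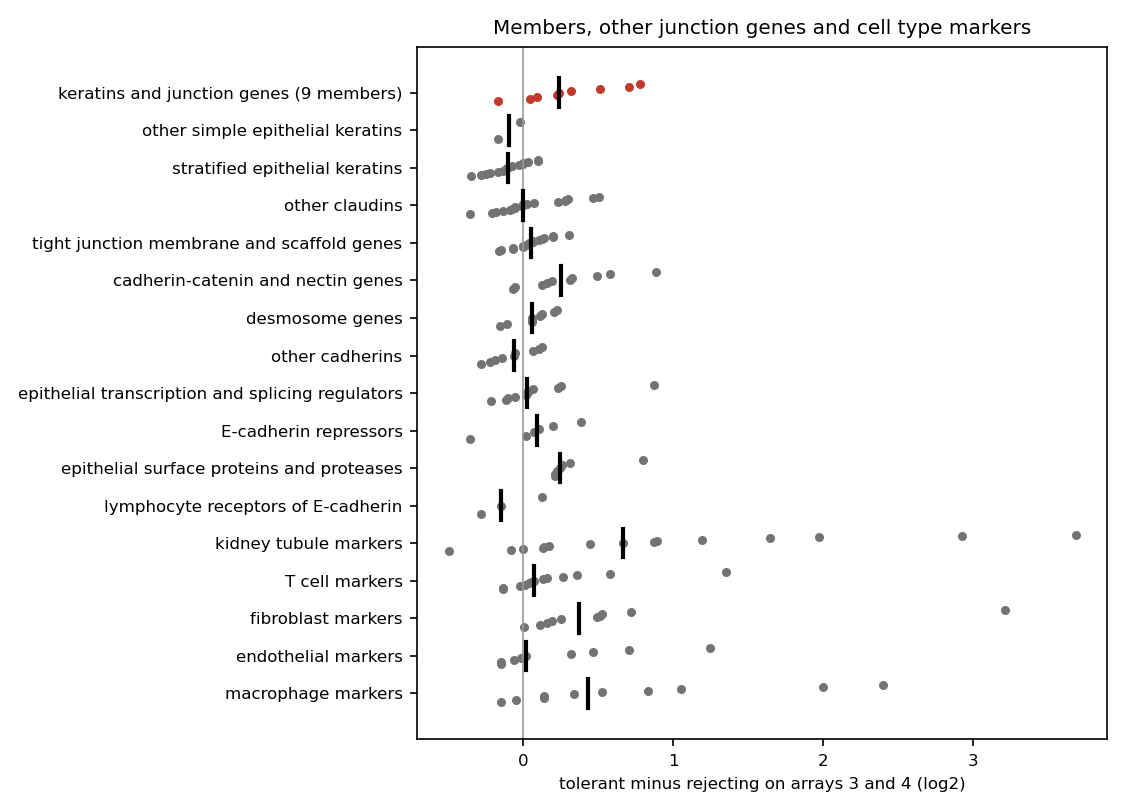
Each row is a list of genes, each point a gene's difference, tolerant minus rejecting on arrays 3 and 4, on the log2 scale, and each black bar the list's median. The 9 keratins and junction genes have a median of 0.24, kidney tubule markers one of 0.67, and stratified keratins one of -0.10.

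Most markers of kidney tubule, fibroblasts and macrophages also read higher on tolerant arrays 3 and 4. Of all probe sets 48.2% did there, and 62.3% of those above the line on at least 2 of these arrays. Kidney tubule markers were higher in tolerant samples for 12 of 15 measured genes, with a median of 0.67, and 2 passed, Slc12a3 and Calb1, the second named after its value was seen. Their summed level on a linear scale was 68.5 to 151.8 in tolerant samples, against 25.7 to 29.0 in rejecting samples. Such a sum is weighted towards the highest genes of a list, here Umod, and genes under the line add to it too. Umod, which the thick ascending limb secretes, read 6.61 and 4.60 in tolerant samples on those arrays, against 1.76 and 2.06 in rejecting samples. Slc12a3, the salt cotransporter of the distal convoluted tubule, had a difference of 2.93 (limma adjusted p = 0.0359), and Aqp2, the water channel of the collecting duct, one of 0.89. Markers of the proximal tubule were mixed. Slc34a1, its phosphate cotransporter, read 1.93 and 1.33 in tolerant samples on arrays 3 and 4, against 0.97 and 0.97 in rejecting samples, and lay above the background line on 2 arrays. Aqp1 lay above it on 1 array, and Lrp2, Cubn and Slc5a2 on 0, as did Kl and Pvalb of other segments. These 7 genes were named after their values were seen. On arrays 1 and 2, 5 of the 15 kidney tubule markers were higher in tolerant samples, where 49.4% of all probe sets were. The summed level of the list there was 21.7 to 22.3 in tolerant samples, against 21.3 to 22.8 in rejecting samples. For the 9 keratins and junction genes the summed level on arrays 3 and 4 was 19.6 to 23.3 in tolerant samples, against 16.8 to 18.1 in rejecting samples.

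Fibroblast markers were higher for 10 of 10, with a summed level of 59.4 to 70.8 in tolerant samples, against 28.4 to 33.8 in rejecting samples. Col1a1, Col1a2 and Dcn had differences of 0.72, 0.53 and 3.21. Macrophage markers were higher for 8 of 10, with a summed level of 36.7 to 42.0 in tolerant samples, against 14.5 to 22.1 in rejecting samples, and Lyz2, C1qb and C1qc had differences of 2.40, 2.00 and 0.83. Endothelial markers were higher for 5 of 9, with a median of 0.02, where 48.2% of all probe sets were higher. Their summed level was 17.3 to 19.1 in tolerant samples, against 14.2 to 15.3 in rejecting samples. Eng, Egfl7 and Kdr had differences of 0.71, 0.32 and -0.06. T cell markers were higher for 10 of 13 and lower for 3, with a median of 0.07. Their summed level was 29.6 to 41.9 in tolerant samples, against 25.0 to 28.4 in rejecting samples. Cd3e, Cd5 and Cd8b1 there had differences of 1.36, 0.36 and 0.26. Of the other genes that define the sorted cells, Cd3g had 0.58, Cd247 0.07, Cd8a 0.05, Cd3d -0.03 and Cd4 -0.14. Besides the 2 kidney genes, 0 members of these 5 lists passed on arrays 3 and 4. On arrays 1 and 2, the markers higher in tolerant samples were 4 of 10 for fibroblasts and 7 of 10 for macrophages. They were 5 of 9 for endothelium and 6 of 13 for T cells. Listed markers above the line on 0 arrays were Lum, Pdgfra, Pdgfrb, Postn and Fap for fibroblasts, Adgre1, Itgam and Cd14 for macrophages, and Pecam1, Kdr, Tek, Tie1 and Esam for endothelium. The part of any of these cells in the values of the keratins and junction genes was not tested.

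The genes whose pattern over the 8 arrays was most like that of Cdh16, the member with the widest range, were Idh3g, Gnas, Dgka, Isoc1 and Gstm2. Likeness was the root mean square difference between values centred on each gene's own mean, and it was 0.14 for Idh3g, Gnas and Dgka, 0.15 for Isoc1 and 0.16 for Gstm2. Dgka, a diacylglycerol kinase, read 2.19 and 2.09 in tolerant samples on arrays 3 and 4, against 1.10 and 1.15 in rejecting samples. Idh3g, a subunit of a mitochondrial dehydrogenase of the citric acid cycle, read 2.28 and 2.03 in tolerant samples, against 1.29 and 1.07 in rejecting samples. On arrays 3 and 4 the differences of these 5 genes lay between 0.72 and 1.02, and 0 of them passed in limma. The genes were chosen on these same arrays, so differences near that of Cdh16 follow from the choice and are no separate result.

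**Figure D4:**
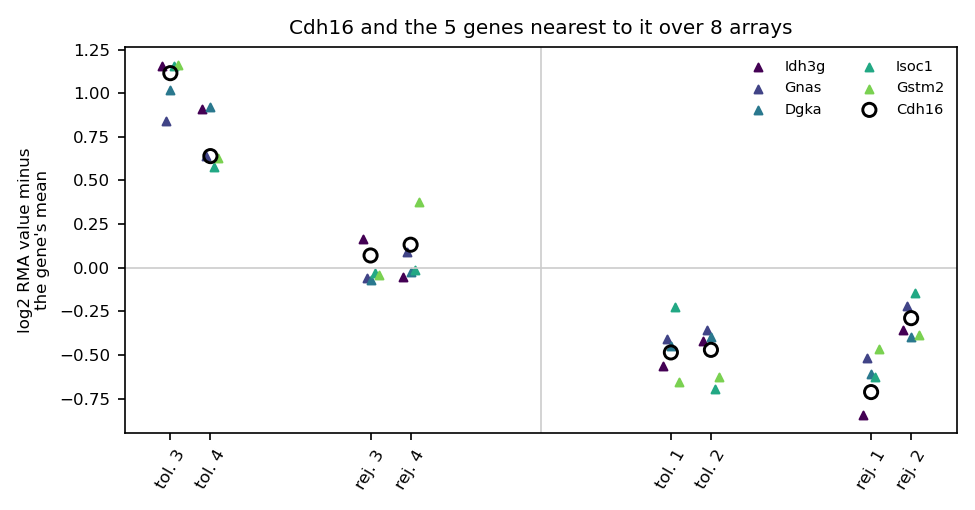
The vertical axis gives each gene's log2 RMA value minus its mean over the 8 arrays, and the horizontal axis the 8 arrays, with arrays 3 and 4 left of the divider. Open circles are Cdh16 and triangles the 5 nearest genes, which were chosen on these values. All 6 genes read highest on tolerant arrays 3 and 4, which follows from that choice.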

How the data were processed

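RNA of CD3-positive graft T cells was measured on 8 Affymetrix arrays. The deposited table holds log2 values for 35556 probe sets. The authors used RMA in Affymetrix Expression Console, per the submitters' processing notes. Neither log base, software version nor probe genome build was found (not given in the sources used here). Base 2 was taken because the highest value, 12.68, would exceed a scanner's range on the natural or base 10 scale.

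Probe sets with 1 gene symbol in the platform annotation (21218) were kept, 1881 with several and 12457 with none were not, and 0 symbols changed on matching by Entrez identifier to RefSeq genes of GRCm38.p6. Differences were tested with limma's linear model and empirical Bayes moderation, 2-sided, with Benjamini-Hochberg adjustment over the 21218 and a threshold of 0.05, after tests on simulated data. The number of arrays limits the precision. R 4.3.3, limma 3.58.1, Python 3.11.15 and matplotlib 3.10.9 were used.

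The members and lists were chosen with earlier results of these data known. Named were all 9 members, the 3 genes of each list with the highest mean over the 8 arrays, defining T cell genes and the 5 genes nearest to the widest-ranging member. A gene with several probe sets was represented by the one with the highest mean. Same-numbered arrays of the groups deviated together across probe sets, by correlations of 0.499, 0.507, 0.410 and 0.599, each over the bound of 0.1 for treating numbers as pairs. Differently numbered arrays of opposite groups within a set deviated together to a like degree (0.497, 0.483, 0.411 and 0.581). Within a set the correlations thus do not single out arrays of the same number, and the labels state no pairs. Alternatives were leaving out each array, blocks, another normalization, a filter on dim probe sets, all probe sets, other moderation and means of a gene's probe sets.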

Additional observations from a re-analysis of the deposited data

How the results depend on the processing

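Under each alternative run, 0 of the 9 genes passed in each comparison, and the lowest adjusted p was 0.118, for Krt7 on arrays 3 and 4 with the mean of each gene's probe sets. With the replicate block, 8 probe sets passed on arrays 3 and 4 and 7 as an interaction, and it changed no call of the 9 genes. The count of probe sets passing on arrays 3 and 4 was 11, and 5 among probe sets above the background line, 0 with all probe sets, 26 with trend and robust moderation and 45 with gene means. For the interaction, 12 passed, and 0 after quantile normalization again, 0 with all probe sets and 33 with gene means. Leaving out each array gave 0 to 48 on arrays 3 and 4, 0 to 2 on arrays 1 and 2, and 0 to 76 for the interaction, where the median of the 9 genes lay between 0.22 and 0.48.

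The direction of some small differences turned when an array was left out. Over 8 arrays, Krt8 lay between -0.28 and 0.17, Krt18 between -0.27 and 0.29, and Krt19 between -0.065 and 0.067. On arrays 3 and 4, Krt8 lay between -0.083 and 0.26 and Cldn7 between -0.48 and 0.14. On arrays 1 and 2, Krt8 lay between -0.67 and 0.082, Krt18 between -1.19 and 0.49, Krt19 between -0.28 and 0.12, Epcam between -0.14 and 0.091, Cdh16 between -0.19 and 0.23, and Cldn7 between -0.77 and 0.085. In the interaction, Krt18 lay between -0.26 and 1.43, Krt19 between -0.073 and 0.32, and Cldn7 between -0.25 and 0.60. The cause was not tested. Krt7, Krt18, Krt19, Epcam, Cdh1, Cdh16 and Cldn4 were higher on tolerant arrays 3 and 4 in each such fit, Krt19 by as little as 0.0027. The arms left with 1 array in the sets of 2 against 2 are assumed to vary like the other arm. Values at or under the background line limit what can be read from Krt19, Epcam and Cldn4, and the filtered fits held no value for genes under the line.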

Other observations

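Rejecting array 1 held the highest of the 8 values for Krt18, Cldn7, Krt13 and Krt19. Krt18 read 2.14 there, Cldn7 1.39 and Krt13, a keratin of layered mucosa, 1.52, where the background line of that array was 1.18. Krt19 read 1.00 there, under that line. These genes were picked after their values were seen, and the array was not tested against the others.

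Among junction and surface genes outside the rule for named genes, Cd24a and Ctnna1 were picked after their values were seen. Cd24a, a small surface glycoprotein of epithelial and immature blood cells, read 1.52 and 1.31 in tolerant samples on arrays 3 and 4, against 0.59 and 0.64 in rejecting samples (difference 0.80, limma adjusted p = 0.196). Ctnna1, which links E-cadherin and beta-catenin to actin, read 1.00 and 1.27 in tolerant samples, against 0.56 and 0.56 in rejecting samples (difference 0.58, limma adjusted p = 0.384).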
